A study of Mus musculus with 4 samples.

Results

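The genes described here encode the proteins of the cornified envelope and the proteins that keratinocytes make as they leave the basal layer. They were taken by symbol: every gene whose symbol starts with Lce or Sprr, and 20 further genes (Lor, Flg, Flg2, Hrnr, Rptn, Tchh, Tchhl1, Ivl, Crnn, Krtdap, Tgm1, Tgm3, Tgm5, Casp14, Asprv1, Calm4, Calm5, Sbsn, Dmkn and Cnfn). This gave 57 of the 25571 genes in the table. RNA from mouse skin was sequenced in 4 groups with 1 library each. The group labels are NC, MNs, PRP and PRP-MNs, which stand for platelet-rich plasma (PRP, a platelet concentrate of blood plasma that carries growth factors) and microneedles (MNs, arrays of fine needles that bring a substance into the skin) as far as the series title spells them out, and that title concerns hair regrowth. NC, which the labels do not spell out, was taken as the reference. Strain, sex, age, the number of animals behind a library, the skin site and the time of harvest are not stated in the sources used here. Since a group is a single library, differences could not be set against the spread between animals, no p-value can be given, and every value describes these libraries.

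In the outer epidermis, keratinocytes stop dividing, fill with keratin filaments and replace their plasma membrane by a shell of cross-linked protein, the cornified envelope. Transglutaminases join involucrin, loricrin, the small proline-rich (Sprr) proteins and the late cornified envelope (Lce) proteins into this shell, while filaggrin and its relatives are released from granules and packed among the keratins. Most of these genes lie side by side on mouse chromosome 3 in the epidermal differentiation complex. Loricrin, filaggrin and the Lce1 genes are known from the granular layer of healthy skin, whereas the Sprr1, Sprr2 and Lce3 genes are known to be induced in injured or inflamed epidermis.

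The short promoter sequences of the Lce genes are shown first because the results turn on a contrast between the Lce1 and Lce3 families, which lie side by side. Each line gives 45 bases before and 20 bases after the annotated start, 5′ to 3′, from RefSeq on GRCm38.p6, and the capitals mark the letters ATAAAA, an AT-rich element near the position of a TATA box. These are chr3:92679202-92679266 on the plus strand for Lce1c, chr3:92752319-92752383 on the minus strand for Lce1g, chr3:92765046-92765110 on the minus strand for Lce1h and chr3:93019042-93019106 on the minus strand for Lce1m. For the Lce3 genes, all on the plus strand, they are chr3:92932934-92932998 (Lce3b), chr3:92944441-92944505 (Lce3c), chr3:92957345-92957409 (Lce3d), chr3:92967016-92967080 (Lce3e) and chr3:92992172-92992236 (Lce3f).
Lce1c: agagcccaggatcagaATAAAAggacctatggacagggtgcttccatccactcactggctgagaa
Lce1g: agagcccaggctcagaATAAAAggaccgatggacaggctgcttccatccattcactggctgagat
Lce1h: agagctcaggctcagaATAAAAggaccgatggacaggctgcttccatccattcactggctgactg
Lce1m: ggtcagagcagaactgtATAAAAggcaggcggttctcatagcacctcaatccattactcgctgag
Lce3b: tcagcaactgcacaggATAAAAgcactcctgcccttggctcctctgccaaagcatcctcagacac
Lce3c: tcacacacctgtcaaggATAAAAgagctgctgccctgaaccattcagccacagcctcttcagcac
Lce3d: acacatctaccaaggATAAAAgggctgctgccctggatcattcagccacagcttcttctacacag
Lce3e: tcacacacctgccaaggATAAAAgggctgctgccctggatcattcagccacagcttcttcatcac
Lce3f: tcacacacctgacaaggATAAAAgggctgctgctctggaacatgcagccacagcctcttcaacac
The element ATAAAA, on the sense strand and starting 40 to 20 bases before the start, was present in 12 of 13 Lce1 promoters and 5 of 6 Lce3 promoters in the table. It was present in 1.74% of all 32851 promoters. The letters were chosen after the sequences had been read, so the counts are a description.

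Members of a different kind carried a match to the AP-1 motif, the binding letters of Fos and Jun family factors. The promoters of Lor, Ivl, Sprr1b and Sprr2h are shown from 200 bases before to 20 bases after the start. They were picked with their values known: Lor and Ivl were lower in PRP-MNs than in NC, and Sprr1b and Sprr2h were not. All 4 hold an AP-1 match and TATAAA, but the matches are not all alike in their middle base. Whether these letters bear on the levels was not tested. Capitals mark TGANTCA, which reads the same on both strands, and TATAAA on the sense strand near the start. The motifs did not overlap in these promoters. The regions are chr3:92083123-92083342 on the minus strand for Lor, chr3:92573716-92573935 on the minus strand for Ivl, chr3:92438760-92438979 on the minus strand for Sprr1b and chr3:92385485-92385704 on the plus strand for Sprr2h.
Lor: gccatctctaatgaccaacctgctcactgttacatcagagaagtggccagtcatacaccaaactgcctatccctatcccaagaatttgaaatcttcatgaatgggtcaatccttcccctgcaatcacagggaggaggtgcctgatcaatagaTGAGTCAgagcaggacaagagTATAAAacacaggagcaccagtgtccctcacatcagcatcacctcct
Ivl: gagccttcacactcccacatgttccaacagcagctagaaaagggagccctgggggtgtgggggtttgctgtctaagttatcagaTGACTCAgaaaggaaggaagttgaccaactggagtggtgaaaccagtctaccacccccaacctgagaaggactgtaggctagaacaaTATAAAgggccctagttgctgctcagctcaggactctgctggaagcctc
Sprr1b: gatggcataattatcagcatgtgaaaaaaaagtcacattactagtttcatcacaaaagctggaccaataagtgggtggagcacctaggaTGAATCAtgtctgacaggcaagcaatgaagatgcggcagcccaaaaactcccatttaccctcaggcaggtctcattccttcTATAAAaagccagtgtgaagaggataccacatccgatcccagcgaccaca
Sprr2h: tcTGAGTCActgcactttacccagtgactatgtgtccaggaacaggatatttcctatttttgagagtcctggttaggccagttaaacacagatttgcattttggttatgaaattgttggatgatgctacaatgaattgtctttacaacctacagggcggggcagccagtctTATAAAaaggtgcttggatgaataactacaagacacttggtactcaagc
The AP-1 match starts 48 bases before the start in Lor, 116 in Ivl, 111 in Sprr1b and 198 in Sprr2h.

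Promoters of 54 of the 57 members were found in the table, 57 promoters of 300 bases in all. TGANTCA was in 21 of them (36.8%) and in 7.81% of all promoters. Promoters, not genes, were counted: Krtdap, Dmkn and Sbsn had 5 promoters for 3 genes, and all 5 held it. The Dmkn promoters that begin at 30763506 and 30763508 share the same match. The matches were unevenly spread over the families: 7 of 10 Sprr2 promoters, both Sprr1 promoters, 5 of 7 promoters of the filaggrin group and none of the 13 Lce1 or 6 Lce3 promoters held it. TATAAA on the sense strand, starting 40 to 20 bases before the start, was in 18 member promoters (31.6%) and in 1.99% of all. The letters CACCC, bound by Klf and Sp factors, were on either strand in 57.9% of member promoters and 57.5% of all promoters. AACCNGTT, a core of the Grainyhead-like motif, was in 2 member promoters and 2.09% of all, TTCNNNGAA of STAT factors in 4 (7.02%) and 8.30% of all, and GAAA and GAAA with any 2 bases between them, from interferon response elements, in 1 (1.75%) and 3.44% of all, each on both strands. Promoters within the Lce1 family shared a median of 69.2% of their bases in an alignment, those within the Lce3 family 67%, and pairs of an Lce1 with an Lce3 promoter 60.2%. A match describes these letters and does not show that a factor bound there.

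Values were FPKM, fragments divided by transcript length and by library depth, so levels can be compared between genes of one library. Differences are log2 of the ratio of FPKM + 1, and 2-fold refers to that scale. Where 4 values follow a gene without group names, they stand in the order NC, PRP, MNs, PRP-MNs. A filter kept genes with a mean of at least 1 FPKM over the 4 libraries, which is the same set for every comparison: 13375 genes, among them 53 members. The 4 members below it were Sprr3 (at most 0.13 FPKM, in NC, and listed at 0 elsewhere), Crnn (at most 0.46 FPKM, in MNs), Tchhl1 (at most 0.89 FPKM, in PRP) and Sprr2k (at most 1.01 FPKM, in PRP-MNs). The steps between low values corresponded to about 15.9 to 19.3 M fragments per library, and 3 fragments on a transcript of 1 kb to 0.155 to 0.189 FPKM, for counting error only. The members together took 5.21% of all FPKM in NC, 2.87% in PRP, 1.21% in MNs and 1.06% in PRP-MNs.

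Most members were highest in NC, intermediate in PRP and lowest in MNs or PRP-MNs. Of the 53 members, NC had the highest value in 33 and the lowest in none. The lowest value was in PRP-MNs for 28 members, in MNs for 24 and in PRP for 1 (Sprr1a). The order NC, PRP, MNs, PRP-MNs held for 23 members, which included loricrin, filaggrin and the proteases. A minority went another way: 12 members were highest in PRP-MNs, among them 6 of 6 Lce3 genes and both Sprr1 genes, 6 were highest in PRP, all of the Sprr2 family, and 2 in MNs (Sprr4 and Tchh). Without replicates it cannot be said which neighbours in these orders differ beyond the spread between animals.

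**Figure D1:**
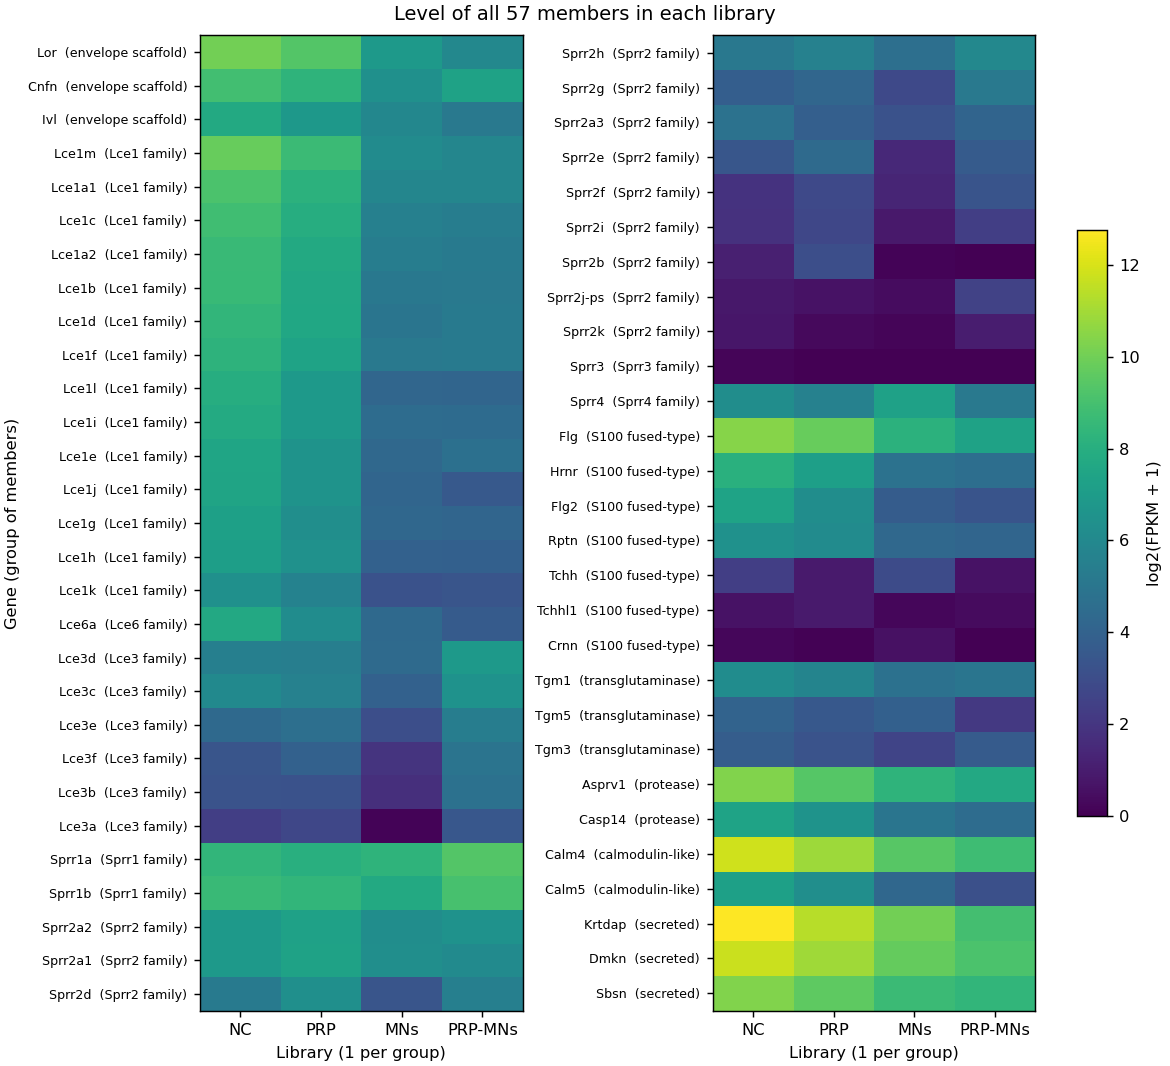
Level of each of the 57 members as log2(FPKM + 1) by colour, with 1 column per library and 1 row per gene, grouped by family or role and ordered by mean level within each group. Krtdap, Dmkn and Calm4 are the brightest rows, and most rows darken from NC to PRP and again to MNs and PRP-MNs, while Lce3, Sprr1a and Sprr1b are brightest in PRP-MNs.

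Between PRP-MNs and NC, 34 of 53 members were at least 2-fold lower and 8 were higher by as much, with a median of -2.32. Over all 13375 genes the median was 0.13, 11.1% were lower by that much and 16.9% higher. The share of members higher (15.1%) was thus near that of all genes, whereas 64.2% of members were lower. A low level was not particular to the members: 8 of 8 genes of epithelium in general were at least 2-fold lower, with a median of -2.22. Centred on the median difference of 8 basal keratinocyte genes, the split was 27 lower and 16 higher. In bulk skin, fewer cells of a type and less RNA per cell cannot be told apart.

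MNs against NC gave the most uniform picture. Here 40 of 53 members were at least 2-fold lower and 1 higher, with a median of -2.10, where 6.68% of all genes were lower and 15.6% higher. Of the 53, only Sprr4 and Tchh had a difference above 0, although Sprr1a (-0.11) and Tgm5 (-0.15) came to 0.04 and 0.006 when centred on basal keratinocyte genes. PRP against NC gave 6 members lower and 3 higher with a median of -0.73, where 1.24% of all genes were lower and 7.71% higher. The 6 were Lce1l, Lce1m, Lce6a, Flg2, Tchh and Krtdap, and 41 of 53 members were below 0. Centred on basal keratinocyte genes the split in PRP was 3 lower and 5 higher, and centred on the median of all genes it was 11 and 2. These comparisons share the NC library, as does that of PRP-MNs, so the NC value of a gene enters all 3.

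Loricrin (Lor), the most abundant protein of the envelope in many body sites, was at 1058 FPKM in NC, 643 in PRP, 113 in MNs and 61.1 in PRP-MNs. By FPKM it was 17.3-fold higher in NC than in PRP-MNs (log2 difference -4.09) and 9.33-fold higher than in MNs, but 1.65-fold higher than in PRP. Involucrin (Ivl), an early scaffold on which the envelope is built, was at 211, 112, 59.2 and 34.5 FPKM, a log2 difference of -2.58 in PRP-MNs. Cornifelin (Cnfn), a further envelope protein, was at 471, 316, 83.3 and 164 FPKM (-1.52). These 3 genes kept NC highest and PRP second, but Cnfn was lowest in MNs and the other two in PRP-MNs. The level of Ivl as a share of Lor was 19.97% in NC and 17.4% in PRP against 52.2% in MNs and 56.4% in PRP-MNs, ratios within a library that do not depend on its scaling.

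The 14 Lce1 genes, late envelope proteins of the uppermost living layers, differed from NC by similar amounts. All 14 were lower by at least 2-fold in PRP-MNs than in NC, between -3.93 and -2.79, and all 14 in MNs, between -3.74 and -3.01. In PRP they lay between -1.07 and -0.73, and 2 of 14 were at least 2-fold lower. Lce1m was at 880.4 FPKM in NC, 418 in PRP, 69.4 in MNs and 56.8 in PRP-MNs. Lce1a1 was at 575, 293, 57.9 and 56.5 FPKM, Lce1c at 461, 244, 45.4 and 40.9 FPKM. Lce1a2 was at 399, 215, 41.6 and 36.4 FPKM and Lce1b at 387, 203, 33.3 and 35.0 FPKM. Summed over the family, Lce1 stood at 4546 FPKM in NC, 2367 in PRP, 429 in MNs and 411 in PRP-MNs. The makeup of this sum was similar in every library, with Lce1m at 19.4% of it in NC and 13.8% in PRP-MNs and Lce1c between 9.95% and 10.6%. Over 91 pairs of Lce1 genes, the longest transcripts shared a median of 81.7% of the bases of the shorter one, and at most 94.1%. Fragments could have been split among these genes, so the 14 values are not 14 separate observations. Lce6a, a single-gene relative, was at 208, 73.9, 19.7 and 11.8 FPKM, a log2 difference of -4.03 in PRP-MNs, and was with -1.48 also the member furthest below NC in PRP.

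The 6 Lce3 genes, which encode late envelope proteins known from wounded and psoriatic epidermis, were instead above NC in PRP-MNs. Lce3d was at 44.1 FPKM in NC, 43.1 in PRP, 20.1 in MNs and 114 in PRP-MNs. Lce3c was at 65.7, 48.6, 14.5 and 89.4 FPKM, and Lce3e at 19.4, 24.6, 7.29 and 41.5 FPKM. PRP-MNs was the highest and MNs the lowest library for each of these genes.

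The lower Lce3 genes had the same ends. Lce3f was at 9.31, 14.5, 2.77 and 29.5 FPKM, Lce3b at 8.56, 8.18, 2.35 and 25.8 FPKM, and Lce3a at 4.16, 5.58, 0.098 and 9.88 FPKM, the value in MNs corresponding to about 1 fragment. Against NC the 6 genes differed by 0.44 to 1.56 in PRP-MNs, 5 of 6 at least 2-fold, by -0.43 to 0.59 in PRP, and by -2.23 to -1.10 in MNs. The Lce3 sum was at 151 FPKM in NC, 145 in PRP, 47.2 in MNs and 310 in PRP-MNs. As a share of the Lce1 sum of the same library it was 3.33% in NC, 6.11% in PRP, 11.0% in MNs and 75.5% in PRP-MNs. The longest transcripts of Lce3c and Lce3d share 95.3% of the bases of the shorter one and those of Lce1h and Lce1i 94.1%, so the split between such pairs is uncertain. Between the families the highest identity was 82.1%.

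Sprr1a and Sprr1b, cross-bridging envelope proteins that keratinocytes make under stress, were among the few abundant members that were not lower in PRP-MNs. Sprr1a was at 333 FPKM in NC, 266 in PRP, 309 in MNs and 645 in PRP-MNs (log2 difference 0.95 from NC). Sprr1b was at 401, 343, 216 and 534 FPKM (0.41). Neither reached 2-fold against NC. Their sum was 16.1% of the Lce1 sum in NC and 287% in PRP-MNs.

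The 12 Sprr2 genes did not share a direction. Against NC, 3 of the 11 that passed the filter were higher by at least 2-fold in PRP-MNs and 1 was lower (Sprr2b). Over all genes 16.9% were higher and 11.1% lower in that comparison, so counts of this size do not set the family apart. Sprr2g was at 12.9 FPKM in NC, 17.9 in PRP, 6.17 in MNs and 34.4 in PRP-MNs, and Sprr2f at 2.60, 5.96, 1.48 and 9.07 FPKM. Sprr2j-ps, whose symbol marks a pseudogene, was at 0.77, 0.52, 0.35 and 4.68 FPKM. It had the largest upward difference of all members in PRP-MNs against NC (1.68). GENCODE release M21 types it as protein-coding and Sprr2g as a polymorphic pseudogene. Only the value in PRP-MNs carried Sprr2j-ps past the filter, so its place among the members higher or highest in PRP-MNs follows in part from the filter. Sprr2h, at 33.5, 48.5, 24.7 and 62.1 FPKM, was also highest in PRP-MNs, with a difference of 0.87.

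A second set of Sprr2 genes was highest in PRP. Sprr2d was at 35.4 FPKM in NC, 81.1 in PRP, 9.35 in MNs and 44.3 in PRP-MNs, Sprr2e at 9.50, 20.3, 1.74 and 11.6 FPKM, and Sprr2i at 2.48, 5.50, 0.80 and 4.20 FPKM. Sprr2b was at 7.50 FPKM in PRP, 0.10 in MNs and 1.16 in NC and was listed at 0 in PRP-MNs. There 3 fragments would give 0.222 FPKM, and PRP was at least 33.7-fold above that floor, which allows for counting error only. The longest transcripts of Sprr2b and the more abundant Sprr2a1 share 89.0% of the bases of the shorter one. Fragments could therefore have been split between them, and the bound does not cover this. The 3 members at least 2-fold above NC in PRP were Sprr2b, Sprr2d and Sprr2e. Of these, Sprr2b passed the filter only through its value in PRP, so its place among them follows in part from the filter. The most abundant Sprr2 genes, Sprr2a1 and Sprr2a2, overlap each other in the annotation, and their longest transcripts were 99.9% identical. Both were highest in PRP, at 162 and 159 FPKM, but their separate values and that of Sprr2a3 are uncertain. Sprr4 differed from the other Sprr genes. It was at 158 FPKM in MNs, 74.9 in NC, 47.7 in PRP and 34.5 in PRP-MNs, and its difference of 1.07 in MNs was the only one of at least 2-fold above NC among the members in that library. Its difference of -1.10 in PRP-MNs became 0.14 when centred on basal keratinocyte genes.

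**Figure D2:**
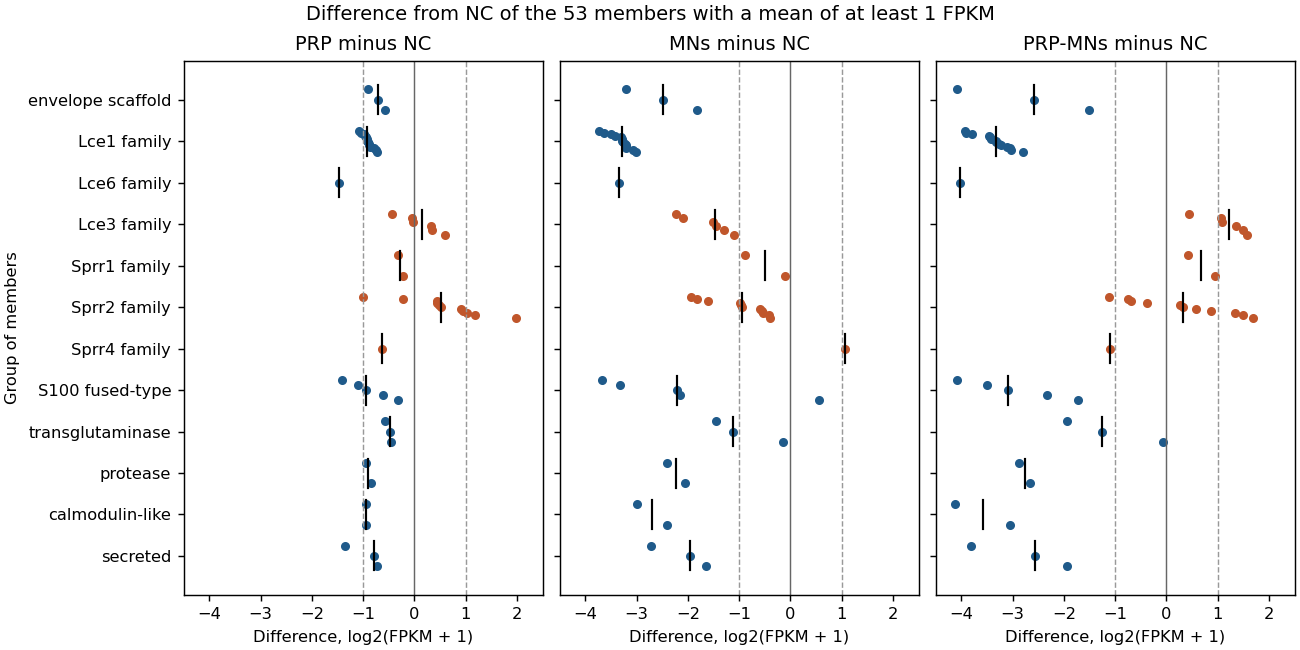
Difference from NC in log2(FPKM + 1) for the 53 members that passed the filter, with 1 point per gene, 1 row per family or role, a bar at the median of the row and dashed lines at 2-fold. The Lce1 points stay together at about -0.9 in PRP and -3.3 in MNs and PRP-MNs, and the Lce3 points (orange, as the Sprr families) lie near 0 in PRP, below -1 in MNs and above 0 in PRP-MNs.

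The S100 fused-type proteins, large repetitive proteins stored in granules, followed Lor. Filaggrin (Flg), which bundles keratin and is later broken down to the skin's natural moisturizing factor, was at 1382 FPKM in NC, 902 in PRP, 296 in MNs and 162 in PRP-MNs (-3.08 in PRP-MNs). Flg2 was at 167, 76.8, 12.1 and 8.93 FPKM (-4.08), and hornerin (Hrnr) at 277, 144, 26.9 and 23.6 FPKM (-3.50). Rptn, which encodes repetin, was at 88.3, 70.4, 19.1 and 16.8 FPKM. Flg2 differed by more than Flg: as a share of Flg it was 12.1% in NC, 8.51% in PRP, 4.09% in MNs and 5.50% in PRP-MNs. Trichohyalin (Tchh), which also hardens the inner root sheath of the hair follicle, was at 6.54 FPKM in MNs, 4.15 in NC, 0.93 in PRP and 0.57 in PRP-MNs. Of 8 genes of the inner root sheath and medulla in a marker list that includes Tchh, the sum was 30.9 FPKM in MNs, 9.96 in NC, 1.31 in PRP and 0.76 in PRP-MNs. Within that list the keratins Krt25 and Krt71 were at 6.06 and 9.52 FPKM in MNs and, like Krt72, listed at 0 in PRP-MNs, while Krt27, Krt28 and Krt73 were listed at 0 in PRP.

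The enzymes split. Transglutaminase 1 (Tgm1), the membrane-bound enzyme that cross-links the envelope, was at 73.6 FPKM in NC, 53.0 in PRP, 26.2 in MNs and 30.2 in PRP-MNs, a difference of -1.26 in PRP-MNs, which is smaller than that of its substrates Lor and Ivl. Tgm3, the soluble enzyme of epidermis and hair follicle, was at 12.4, 8.68, 5.14 and 11.7 FPKM and differed by -0.08 in PRP-MNs and by -1.12 in MNs. Centred on basal keratinocyte genes, its difference in PRP-MNs was 1.16, a change of sign and past 2-fold. Tgm5, which acts in the upper epidermis, was at 15.8, 10.3, 14.2 and 3.40 FPKM and differed by -1.94 in PRP-MNs and by -0.15 in MNs. MNs was therefore the lowest library for Tgm1 and Tgm3, but PRP-MNs for Tgm5. Casp14 and Asprv1, proteases that process filaggrin, were at 166, 91.6, 30.6 and 21.7 FPKM and at 1310, 677, 312 and 208 FPKM. Their differences were -2.88 and -2.65 in PRP-MNs and -2.40 and -2.06 in MNs.

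The most abundant members encode small secreted or calcium-binding proteins of the suprabasal layers. Krtdap, a secreted keratinocyte differentiation protein, was at 6947 FPKM in NC, 2710 in PRP, 1050 in MNs and 497 in PRP-MNs. Dermokine (Dmkn) was at 3409, 1960, 870.0 and 574 FPKM, and suprabasin (Sbsn), its neighbour on chromosome 7, at 1296, 783, 412 and 337 FPKM. Krtdap had the largest difference of these 3 in each treated library, at -3.80, -1.36 and -2.72 in PRP-MNs, PRP and MNs. The calmodulin-like genes Calm4 and Calm5 were at 3725, 1932, 698 and 449.6 FPKM and at 149, 77.3, 17.9 and 7.67 FPKM. Calm5 had the most negative difference of all members in PRP-MNs (-4.12). Its longest transcript shares 90.0% of its bases with that of Calm4, so fragments could have been split between them.

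On GRCm38, 46 of the 57 members lie on chromosome 3 between 92080271 (Lor) and 93471980 (Tchhl1), a stretch of 1.39 Mb, and 11 lie elsewhere. Krtdap (ENSMUSG00000074199), Dmkn, Sbsn and Cnfn are on chromosome 7, Calm4 and Calm5 on chromosome 13, Tgm3 and Tgm5 on chromosome 2, Tgm1 on chromosome 14, Casp14 on chromosome 10 and Asprv1 on chromosome 6. In PRP-MNs against NC, 10 of the 11 genes outside the stretch were at least 2-fold lower, with a median of -2.57, and 24 of 42 inside it, with a median of -2.02. The genes higher by at least 2-fold, 8 in number, were all inside it. Over all genes 11.1% were lower and 16.9% higher in that comparison, so few higher genes could be found among 11. Sprr2j-ps, among the 8, passed the filter only through its value in PRP-MNs. Lower levels were seen inside and outside the complex, and genes within it differed in both directions. A role of the location was not tested.

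The Lce3 genes lie from 92925287 to 92993426 in the midst of genes that were lower in PRP-MNs. On one side the nearest genes in the table are Lce1l and 2310050C09Rik, which was at 49.2 FPKM in PRP-MNs and 418 in NC. On the other side are Crct1, at 172 and 1140 FPKM, and Lce1m, which begins at 93017810. Of 7 genes in the stretch that passed the filter and are not members, 6 were lower by at least 2-fold in PRP-MNs and none was higher, among them Kprp, a keratinocyte proline-rich protein (24.8 against 226 FPKM).

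**Figure D3:**
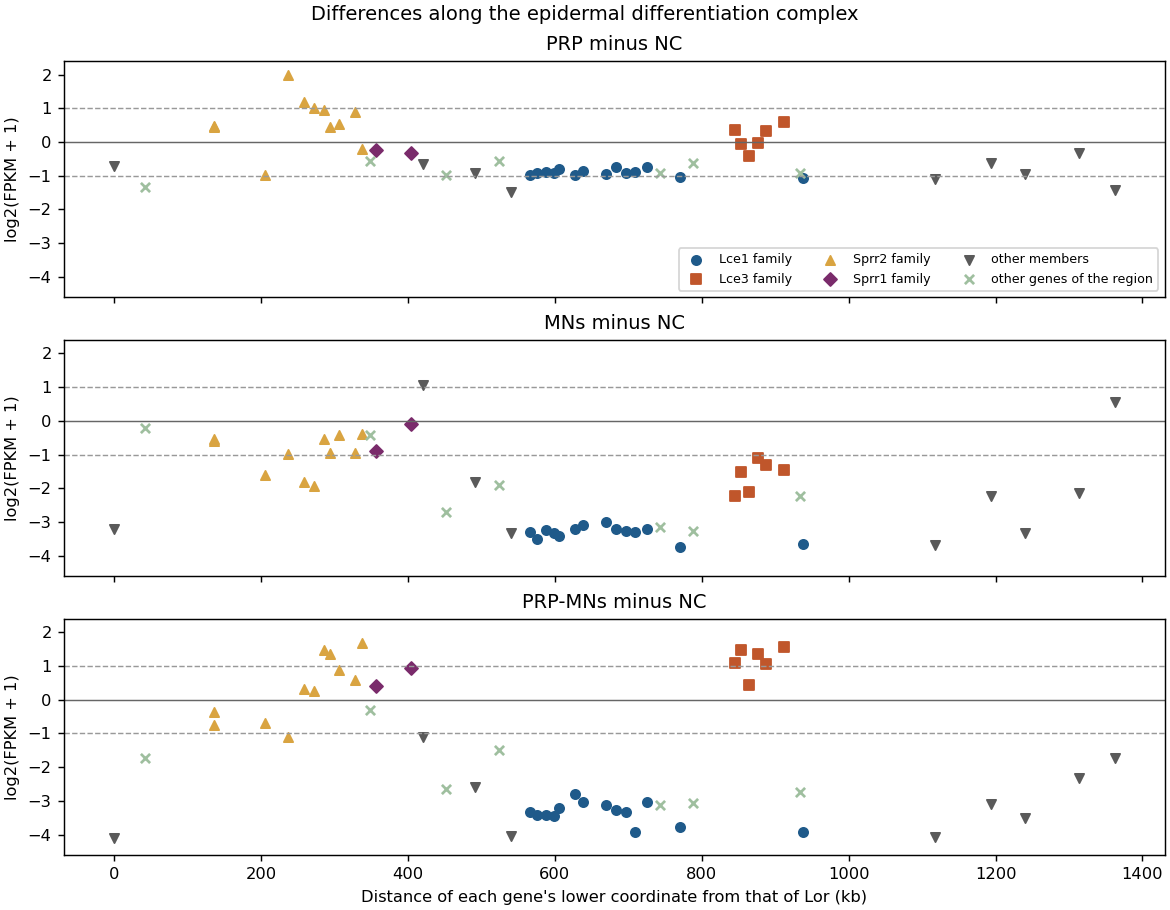
Differences from NC in log2(FPKM + 1) along the epidermal differentiation complex for PRP, MNs and PRP-MNs, with 1 point per gene that passed the filter placed by its distance from Lor in kb and dashed lines at 2-fold. In PRP-MNs the 6 Lce3 squares lie above 0 between Lce1 genes at -3.93 to -2.79, and in MNs the same squares lie below -1.

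Of the comparisons without NC, those with PRP-MNs separated the families. Between PRP-MNs and PRP, 31 of 53 members were at least 2-fold lower and 4 higher (7.55% and 9.06% of all genes), with a median of -1.70. The 4 were Lce3b, Lce3d, Sprr1a and Sprr2j-ps, and centred on basal genes the split was 24 lower and 14 higher. Between MNs and PRP, 41 were lower and 2 higher (4.58% and 5.7% of all genes), the latter Sprr4 and Tchh. The lower ones held 14 of 14 Lce1, 6 of 6 Lce3 and 8 of 11 Sprr2 genes, so these families went the same way there. Between PRP-MNs and MNs, 5 were lower and 16 higher (7.04% and 6.65% of all genes), with a median of -0.04. In that comparison 6 of 6 Lce3 genes, both Sprr1 genes and 7 of 11 Sprr2 genes were higher by at least 2-fold in PRP-MNs, and none of the 14 Lce1 genes reached 2-fold in either direction. The Lce3 sum was 6.58-fold and the Sprr1 sum 2.24-fold higher in PRP-MNs than in MNs, whereas the Lce1 sum was 0.957 of its level in MNs. The remaining higher gene was Tgm3. The 5 lower genes were Sprr4, Tchh, Tgm5, Calm5 and Krtdap, and centred on basal genes the split was 2 lower and 23 higher.

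Genes that work with the members were read from lists by function. Of 5 suprabasal keratins that passed the filter, all were lower by at least 2-fold in PRP-MNs (median -3.52) and in MNs (-2.49). Krt10, the main keratin of the layers above the basal layer, was at 6056, 3428, 1079 and 475 FPKM, and its partner Krt1 at 3317, 2170, 900.5 and 287 FPKM. Of 11 genes of the envelope plaque and the corneodesmosome, 10 were lower by at least 2-fold in PRP-MNs (median -2.17) and 9 in MNs. They include the cadherin gene Dsg1a (374, 229, 84.3 and 38.8 FPKM) and periplakin (Ppl), a plaque protein on which the envelope starts (124, 75.9, 30.8 and 19.1 FPKM). Of 12 genes of the lipid envelope, 10 were lower in PRP-MNs (median -1.63) and 6 in MNs, with the lipoxygenase gene Aloxe3 at 38.0, 21.6, 4.55 and 4.82 FPKM. Elovl4, which lengthens fatty acids, was the 1 gene of this list at least 2-fold higher in MNs, at 300.1, 212, 659 and 72.6 FPKM. Cyp4f39 was also above NC in MNs (0.63), at 28.2, 23.7, 44.3 and 11.2 FPKM.

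Of 8 genes of filaggrin processing and breakdown, 4 were at least 2-fold lower and 1 higher in PRP-MNs (median -1.12). Hal, the histidine ammonia-lyase that makes urocanic acid, was at 116, 71.2, 18.9 and 12.2 FPKM. The higher gene was the peptidylarginine deiminase gene Padi4, also a neutrophil gene, at 6.08 FPKM in PRP-MNs and 0.79 in NC. Of 8 shedding genes, 6 were lower and 1 higher (median -1.82). The protease inhibitor gene Spink5 was at 281, 153, 99.1 and 54.7 FPKM, and the higher gene Klk6 at 116, 110, 162 and 242 FPKM. Of 6 genes of calcium sensing and stores, 3 were lower and none higher (median -0.75).

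Of 26 regulators of differentiation, 16 were at least 2-fold lower and 1 higher in PRP-MNs (median -1.43), 1 lower in PRP (-0.53) and 10 lower in MNs (-0.57). Pou2f3, a POU factor of suprabasal keratinocytes, was at 58.8, 31.1, 13.5 and 4.75 FPKM. Gata3 was at 37.6, 25.3, 10.7 and 4.50 FPKM, Grhl1 at 105, 65.5, 36.0 and 17.2 FPKM, and Klf4, a zinc finger factor needed for the skin barrier, at 256, 160, 101 and 44.1 FPKM. NC was the highest library and PRP-MNs the lowest for these 4 regulators. The gene higher by 2-fold was Maf (33.9 against 15.9 FPKM). The 4 wound-associated keratins (Krt6a, Krt6b, Krt16 and Krt17) had a median of 0.65 in PRP-MNs, with 1 at least 2-fold higher, Krt6a at 1325 FPKM against 646 in NC.

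Levels of other cells' markers also differed between the libraries. Basal keratinocyte genes (8 of 8 passed) summed to 6738 FPKM in NC, 5908 in PRP, 5528 in MNs and 2930 in PRP-MNs. Their medians against NC were -1.24 in PRP-MNs, -0.20 in PRP and -0.15 in MNs, with 4 of 8 lower by at least 2-fold in PRP-MNs, none in PRP or MNs, and 1 higher in MNs. Krt14 was at 3966, 3700, 3339 and 2055 FPKM and Krt5 at 2348, 1848, 1605 and 689 FPKM. Genes of epithelium in general had medians of -2.22, -0.53 and -1.09 in the same order, with 8 of 8, 0 and 5 at least 2-fold lower, and Krt8 was listed at 0 in PRP and NC. All 5 leukocyte genes were at least 2-fold higher in each treated library, their sum being 55.9, 206, 262 and 720.2 FPKM. The 6 neutrophil genes summed to 234.0, 406, 180.0 and 1006 FPKM, with Ly6g listed at 0 in PRP and NC, and that list holds S100a8 and S100a9, which keratinocytes also express. Macrophage genes summed to 47.4, 182, 332 and 527 FPKM, endothelial genes to 15.2, 43.8, 88.6 and 138 FPKM, and adipocyte genes to 258, 471, 644 and 543 FPKM. Fibroblast genes were highest in MNs (858, 1837, 7180 and 974 FPKM), as were sebaceous gland genes (375.0, 461, 1543 and 339 FPKM), and 4 of 6 of the latter were lower by at least 2-fold in PRP-MNs. Skeletal muscle genes summed to 4048, 7164, 4121 and 6304 FPKM, and none of 6 hair shaft genes passed the filter, of which Krt31 was listed at 0 in all libraries but MNs. The part of the leukocyte, stromal and gland markers in the results was not tested.

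Relative to the basal keratinocyte genes of the same library, Lce1 and Lce3 still differed from NC in opposite directions in PRP-MNs. Centred on the median of those genes, the members had a median of -1.09 in PRP-MNs against NC. In MNs, where the basal genes were close to NC, 38 of 53 were lower on that scale. As a share of Krt14, Lor was at 26.7% in NC, 17.4% in PRP, 3.40% in MNs and 2.98% in PRP-MNs. Krtdap was at 175%, 73.2%, 31.5% and 24.2% in that order, and Flg at 34.9%, 24.4%, 8.85% and 7.90%. The Lce1 sum was at 115%, 64.0%, 12.9% and 19.99%. The Lce3 sum instead was at 3.81%, 3.91%, 1.41% and 15.1%, and the Sprr1 sum at 18.5%, 16.4%, 15.8% and 57.4%. Krt14 differed from NC by -0.95 in PRP-MNs, but Krt5, also a basal keratin, by -1.77. These shares, and the order of MNs and PRP-MNs in them, can therefore depend on the reference gene. Tgm1, on the scale centred on basal genes, differed by -0.02 between PRP-MNs and NC.

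**Figure D4:**
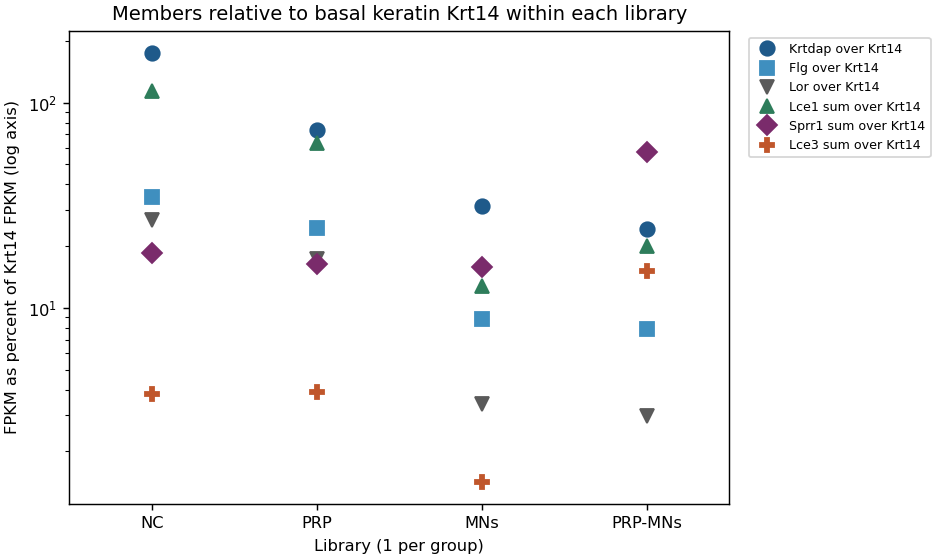
FPKM of Krtdap, Flg, Lor and the summed Lce1, Sprr1 and Lce3 genes as a percentage of Krt14 in the same library, on a log axis, with 1 point per library. From NC to PRP-MNs, Lor goes from 26.7% to 2.98%, the Lce3 sum from 3.81% to 15.1% and the Sprr1 sum from 18.5% to 57.4%.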

How the data were processed

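Skin RNA of 4 groups was sequenced with 1 library each. The input was 1 μg of RNA and the kit NEBNext Ultra, per the labels' protocols. The submitters' processing notes name the build GRCm38. The aligner, counting tool, annotation and strandedness are not given in the sources used here, and values of overlapping or near-identical genes are uncertain. The authors deposited FPKM values for 25571 genes. FPKM is scaled within a library, so abundant genes can shift all others. Identifiers of all 57 members matched GENCODE release M21. Promoters came from RefSeq. Differences used a pseudocount of 1 and genes with a mean of at least 1 FPKM over the 4 libraries, and 6 comparisons were made. With 1 library per group there was no test.

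Depth was estimated from steps between low values of genes with 1 transcript. At the best step 21.4% to 25.3% of low values came within 0.02 of whole fragments, against medians of 2.88% to 3.13% at other steps, so fragments were not recovered and no count test was run. Approximate fragments per gene use its longest transcript.

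The members, lists, motifs and comparisons were chosen with earlier results of these data known. Named with all 4 values were the 15 members with the highest mean, the transglutaminases and filaggrin proteases, the 5 lowest and 5 highest in PRP-MNs against NC, members opposite in sign to the members' median in PRP-MNs or MNs, and some others named after their values were seen (Ivl, Hrnr, Rptn, Sprr2b, Sprr2a1, Sprr2a2, and Maf and Klk6 of the lists). From each list up to 4 genes with the largest difference could be named. Evplp and Krt85 were not analysed here. Calculations were tested on simulated data and run with Python 3.11.15, pandas 2.3.3 and numpy 2.4.6. The alternatives were 7 settings fixed with the design and 1 added later.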

Additional observations from a re-analysis of the deposited data

Results flagged for a closer look

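A pair of members had microneedle differences of at least 2-fold in opposite directions with and without PRP, and the difference between them was not tested, since each group is 1 library. Lce3d differed by 1.38 between PRP-MNs and PRP and by -1.10 between MNs and NC on the log2 scale, a gap of 2.48. Lce3b was at 1.54 and -1.51, a gap of 3.06. In MNs these genes rested on about 184 and 24.6 fragments, and in PRP-MNs on about 964 and 249.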

How the results depend on the processing

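Over 8 alternatives, 86 of the 96 recomputed counts of members past 2-fold stayed within 1.5 times the reported count. Centring on basal keratinocyte genes moved 5: higher in PRP-MNs against NC went from 8 to 16, lower in PRP against NC from 6 to 3, higher in PRP against NC from 3 to 5, higher in PRP-MNs against PRP from 4 to 14, and lower in PRP-MNs against MNs from 5 to 2. Centring on the median of all genes gave 11 lower in PRP against NC and 0 higher in MNs against NC. A mean of at least 5 FPKM, which 47 members reached, gave 5 higher in PRP-MNs against NC and 1 higher in MNs against PRP, and a pseudocount of 0.1 gave 5 higher in PRP against NC. Leaving out Sprr2a1, Sprr2a2 and Sprr2a3, an alternative added after the data had been seen, moved none, nor did no filter, a filter on the 2 libraries compared, or equal sums without mitochondrial genes. The members that no filter adds were short of 2-fold in every comparison, and the Sprr2a genes were few among those counted. Those 2 settings therefore could not move a count, although they are among the 8. Of 444 recomputed differences of named members, 404 kept their side of 2-fold and 10 changed sign. Of these, 1 had been past 2-fold (Sprr4 in PRP-MNs against NC, from -1.10 to 0.14 when centred on basal keratinocyte genes) and 1 went past it (Tgm3 in the same comparison and setting, from -0.08 to 1.16). The other 8 lay between -0.15 and 0.17 before and after, for Tgm3 in PRP-MNs, Lce3b and Lce3d in PRP and Sprr1a and Tgm5 in MNs, under that centring or equal sums. The causes were not tested. Centring shifts were -1.24, -0.20 and -0.15 for basal genes in PRP-MNs, PRP and MNs, and 0.13, 0.05 and 0.16 for all genes. No paired analysis was possible because each group has 1 library, and for the same reason no library could be left out. Depth limits Lce3a and Sprr2b in MNs (about 1 fragment each) and Sprr2j-ps in MNs (about 4.42).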
